A study of Homo sapiens with 9 samples.

Results

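Expressed solute carrier genes were described in A549, a line established from a human lung adenocarcinoma, across 3 groups of RNA sequencing libraries. The 185 genes were the protein-coding genes whose current symbol is SLC followed by a digit and whose mean level over the 9 libraries was at least 5 CPM (counts scaled to a common library size with TMM factors, which adjust for library composition). They came from 369 such genes, of which 26 had 0 counts in all 9 libraries. All 185 were among the 16903 genes tested, out of 60664 identifiers in the table. SLC2A1, SLC2A3, SLC16A3, SLC7A11, SLC40A1 and SLC11A2, which carry glucose, lactate, cystine or iron, were left out by name. The genes were chosen by their measured mean level over all 9 libraries, so their levels are given as a description. The rule took no difference between groups as a criterion, and these differences were tested. It was set with earlier results of these data known, so the tests were not blind to the choice. Just inside the threshold were SLC29A4 at 5.86 CPM, SLC43A1 at 5.55 CPM and SLC35F3 at 5.21 CPM, and just outside were SLC15A3 at 4.68 CPM, SLC35E4 at 4.58 CPM and SLC30A4 at 4.54 CPM. The group means of 2 of the 185 genes fell under the threshold, that of SLC29A4 in shHES4 at 4.63 CPM and that of SLC35F3 in shHES1 at 4.82 CPM. SLC2A4RG, SLC4A1AP and SLC7A6OS meet the rule by name but are named after a neighbouring or interacting carrier and are not carriers themselves.

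Solute carriers are membrane proteins that move amino acids, sugars, nucleosides, metals, inorganic ions, vitamins and metabolites across the plasma membrane and the membranes of mitochondria, the Golgi apparatus and lysosomes. Most work as facilitators, as exchangers of one solute for another, or as secondary active carriers that use the sodium or proton gradient. Families are numbered by sequence similarity, and the mitochondrial family SLC25 is the largest in humans. In lung tumour lines, carriers supply the amino acids, nucleosides and phosphate needed for growth.

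The 9 libraries were 3 from cells with a control short hairpin RNA (shCtrl), 3 labelled with a hairpin against HES1 (shHES1) and 3 labelled with a hairpin against HES4 (shHES4). The labels name the hairpin and the line, and give no hairpin sequence, time after transduction, clone or selection. The products of HES1 and HES4 are repressors of transcription with a basic helix-loop-helix domain, and the series asks what both do to gene expression in this line. Nothing in the labels says whether the 3 replicates of a group were separate cultures, so the p-values reflect only how these libraries varied, which may be technical. In bulk libraries, fewer cells that express a gene and less RNA per cell cannot be told apart.

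HES1 itself was no lower with the shHES1 label, at 9.11, 6.396 and 8.32 CPM against 6.99, 6.55 and 7.17 CPM in shCtrl, a log2 difference of 0.20 ± 0.12 (SE, adjusted p = 0.345). HES4 was lower in both shHES groups, by -0.59 and -0.46 on the log2 scale. Since HES1 goes against its label, shHES1 below always means the libraries labelled so. Totals ran from 22.8 to 27.6 M counts per library. Within groups, pairs of libraries differed by a chi-square per degree of freedom of 2.32 to 3.32, except for the pairs with shCtrl replicate 3, at 5.16 and 6.99; pairs from different groups gave 6.33 to 13.8. That library also had the highest share of mitochondrially encoded counts, 7.16% against 5.89 to 6.69% in the others. Of 7 epithelial and A549 markers, all were above 1 CPM, with EPCAM the lowest at 1.70 CPM over all libraries. The summed level of the 7, mostly KRT8 and KRT18, was 7095 to 7172 CPM in shCtrl, 6164 to 6299 CPM in shHES1 and 7327 to 7593 CPM in shHES4. The 7 did not move together. In shHES1, KRT19, CDH1 and EPCAM were higher than in shCtrl, at 61.7, 182 and 2.19 CPM against 37.3, 170 and 1.48 CPM. The other markers of the list were lower there. In shHES4, KRT8, KRT18 and KRT19 were higher than in shCtrl and the others lower. Of 5 leukocyte markers 1 was above 1 CPM, CD68, at 84.4 CPM in shCtrl, 74.2 CPM in shHES1 and 104 CPM in shHES4, a lysosomal protein that is not confined to leukocytes, and CD3E was at 0 counts in every library. Of 5 fibroblast markers 2 were, COL1A1 and LUM, and the list summed to 11.2 to 15.2 CPM in shCtrl, 16.3 to 17.4 CPM in shHES1 and 9.51 to 10.5 CPM in shHES4. COL1A1 stood at 9.30 CPM in shCtrl, 13.1 CPM in shHES1 and 5.77 CPM in shHES4. Of 3 endothelial markers PECAM1 alone passed 1 CPM, at 1.22 CPM over all libraries, and of 2 erythroid markers 0 did. The part of these marker differences in the results below was not tested.

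The promoter windows of 5 genes are shown, because the factors named in the labels bind DNA at short boxes. The 5 were picked, after their values were seen, from the called genes whose levels in each library are given below, and they are not the 5 with the largest differences. Each window runs from 250 bases before to 50 bases after a RefSeq start, on GRCh38.p14, read 5′ to 3′ along the gene's strand. Capitals mark matches on either strand to the N-box CACNAG, the E-box CACGTG or the class C box CACGCG, and no stretch can match 2 of these boxes in full, though neighbouring matches may share bases. The windows are chr5:36606356-36606655 (plus strand) for SLC1A3, chr14:23183611-23183910 (minus strand) for SLC7A8, chr14:22815822-22816121 (minus strand) for SLC7A7, chr1:110390977-110391276 (minus strand) for SLC16A4 and chr2:112645689-112645988 (plus strand) for SLC20A1.
SLC1A3: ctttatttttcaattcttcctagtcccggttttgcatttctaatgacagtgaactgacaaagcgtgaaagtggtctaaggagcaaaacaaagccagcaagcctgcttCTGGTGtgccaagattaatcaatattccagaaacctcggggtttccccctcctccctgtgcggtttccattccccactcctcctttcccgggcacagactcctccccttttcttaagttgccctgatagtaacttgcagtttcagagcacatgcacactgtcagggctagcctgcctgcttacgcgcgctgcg
SLC7A8: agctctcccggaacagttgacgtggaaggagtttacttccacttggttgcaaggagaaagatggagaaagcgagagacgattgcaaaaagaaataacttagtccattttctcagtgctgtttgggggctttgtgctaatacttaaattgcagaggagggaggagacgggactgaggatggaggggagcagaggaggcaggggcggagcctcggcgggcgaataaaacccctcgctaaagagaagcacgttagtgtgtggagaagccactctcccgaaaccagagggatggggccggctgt
SLC7A7: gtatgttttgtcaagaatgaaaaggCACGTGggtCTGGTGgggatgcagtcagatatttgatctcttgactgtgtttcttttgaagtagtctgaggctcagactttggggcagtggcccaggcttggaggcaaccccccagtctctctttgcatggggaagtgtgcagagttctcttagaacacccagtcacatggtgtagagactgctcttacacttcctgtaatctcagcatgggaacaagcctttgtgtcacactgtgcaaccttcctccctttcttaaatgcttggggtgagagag
SLC16A4: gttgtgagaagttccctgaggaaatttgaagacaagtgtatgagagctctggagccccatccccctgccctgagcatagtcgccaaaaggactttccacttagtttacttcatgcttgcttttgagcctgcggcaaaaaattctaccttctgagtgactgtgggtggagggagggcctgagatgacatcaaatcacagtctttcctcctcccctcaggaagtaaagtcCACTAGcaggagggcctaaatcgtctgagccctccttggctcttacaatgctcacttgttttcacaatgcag
SLC20A1: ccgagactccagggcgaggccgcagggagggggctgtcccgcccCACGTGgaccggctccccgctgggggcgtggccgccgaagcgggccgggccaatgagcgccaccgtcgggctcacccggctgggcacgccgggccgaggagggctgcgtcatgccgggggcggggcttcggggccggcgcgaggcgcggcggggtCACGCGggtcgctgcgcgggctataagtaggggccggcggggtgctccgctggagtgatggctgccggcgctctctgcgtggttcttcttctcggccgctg

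The window of SLC1A3 held 1 N-box, that of SLC7A7 1 N-box and 1 E-box, that of SLC16A4 1 N-box, and that of SLC20A1 1 E-box and 1 class C box. No box was found in the window of SLC7A8. For SLC1A3, SLC7A8 and SLC7A7 the RefSeq table gives 3, 4 and 3 windows, and the one nearest to the start of the GENCODE transcript is shown, at 251, 20 and 68 bases from it. RefSeq windows were found for 150 of the 185 genes, 226 windows in all. An N-box was in 33.2% of them, against 35.1% of the windows of all tested genes at 5 CPM or more and 38.03% of all 35116 windows. An E-box was in 15.5%, against 9.51% and 7.26%, and a class C box in 17.3%, against 17.5% and 11.4%. In the 83 windows of solute carrier genes that differed in at least 1 comparison, the shares were 34.9%, 13.3% and 20.5%. A match is a stretch of letters in a fixed window, not a measured site of binding.

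The 185 genes spanned mean levels from 5.21 to 1278 CPM, with a median of 31.3 CPM, and 30 of them were at 100 CPM or more. Per kilobase of transcript, the highest level was that of SLC25A5, the main ADP/ATP carrier of dividing cells, at 497 CPM per kb. It was followed by SLC7A5 at 282, the leucine exchanger, and SLC3A2 at 281, the heavy chain that takes SLC7A5 to the cell surface. Next came the mitochondrial phosphate carrier SLC25A3 at 275 and a second ADP/ATP carrier, SLC25A6, at 148 CPM per kb. The glutamine carrier SLC1A5 stood at 127, the mitochondrial glutathione carrier SLC25A39 at 112, the neutral amino acid carrier SLC38A2 at 88.6, the anion exchanger SLC4A2 at 87.3 and the amino acid carrier SLC38A10 at 83.005 CPM per kb. Carriers of amino acids and of mitochondrial substrates thus made up 9 of these 10, counting the heavy chain with the first. The carriers of glucose, lactate, cystine and iron left out by name were not part of this ranking. SLC25A5, SLC25A6 and SLC25A4 are near-identical in parts, so the split of reads between them is uncertain. The SD within a group was 3.83% of the mean in the median of all genes and groups.

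In the libraries labelled shHES1, 30 of the 185 genes (16.2%) differed from shCtrl in edgeR's quasi-likelihood test with Benjamini-Hochberg adjustment over all tested genes (adjusted p under 0.05), 18 of them higher and 12 lower. Among all 16903 tested genes 9.73% differed (5.25% higher and 4.48% lower), and among the 11585 at 5 CPM or more 12.6%. In shHES4, 22 of the 185 (11.9%) differed from shCtrl, 6 higher and 16 lower, against 5.94% of all tested genes and 7.67% of those at 5 CPM or more. The lower genes of shHES4 were 8.65% of the 185, against 2.7% of all tested genes, while the higher ones were 3.24% both of the 185 and of all tested genes. All tested genes include those under 5 CPM, so these shares by direction are not matched for level. Between the libraries labelled shHES1 and shHES4, 44 genes (23.8%) differed, 24 higher and 20 lower in shHES1, against 15.1% of all tested genes (7.41% higher and 7.65% lower) and 18.9% of those at 5 CPM or more.

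The differences were mostly small. The median called gene differed 1.17-fold in shHES1, 1.17-fold in shHES4 and 1.22-fold between the shHES groups, and 2, 1 and 6 called genes differed by 1.5-fold or more. The median log2 difference over all 185 was 0.00 in size in each comparison, as over all tested genes. In total 64 genes (34.6%) were called in at least 1 comparison and 121 in none, against 19.9% called in at least 1 among all tested genes and 25.1% among those at 5 CPM or more. The former had a median level of 44.5 CPM and the latter of 28.9 CPM. Scaling by total counts alone moved the split of shHES1 against shCtrl from 18 higher and 12 lower to 23 and 8, and that between the shHES groups from 24 and 20 to 32 and 17. Without shCtrl replicate 3, the library that stood apart, the splits were 16 and 11 in shHES1, 6 and 15 in shHES4, and 27 and 22 between the shHES groups. The lower genes of shHES1 numbered 6 without shCtrl replicate 2 and 7 without any 1 of the shHES1 replicates, and its higher genes 12 without shCtrl replicate 1 or 2 and 11 without shHES1 replicate 1 or 2. In shHES4 the lower genes numbered 10 without shCtrl replicate 2 or shHES4 replicate 2 and 9 without shHES4 replicate 3, and the higher ones 3 without shCtrl replicate 1 or shHES4 replicate 3 and 4 without shCtrl replicate 2 or shHES4 replicate 1 or 2. The 2 comparisons with shCtrl share their control libraries, so a gene that is high or low in shCtrl moves in both.

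**Figure D1:**
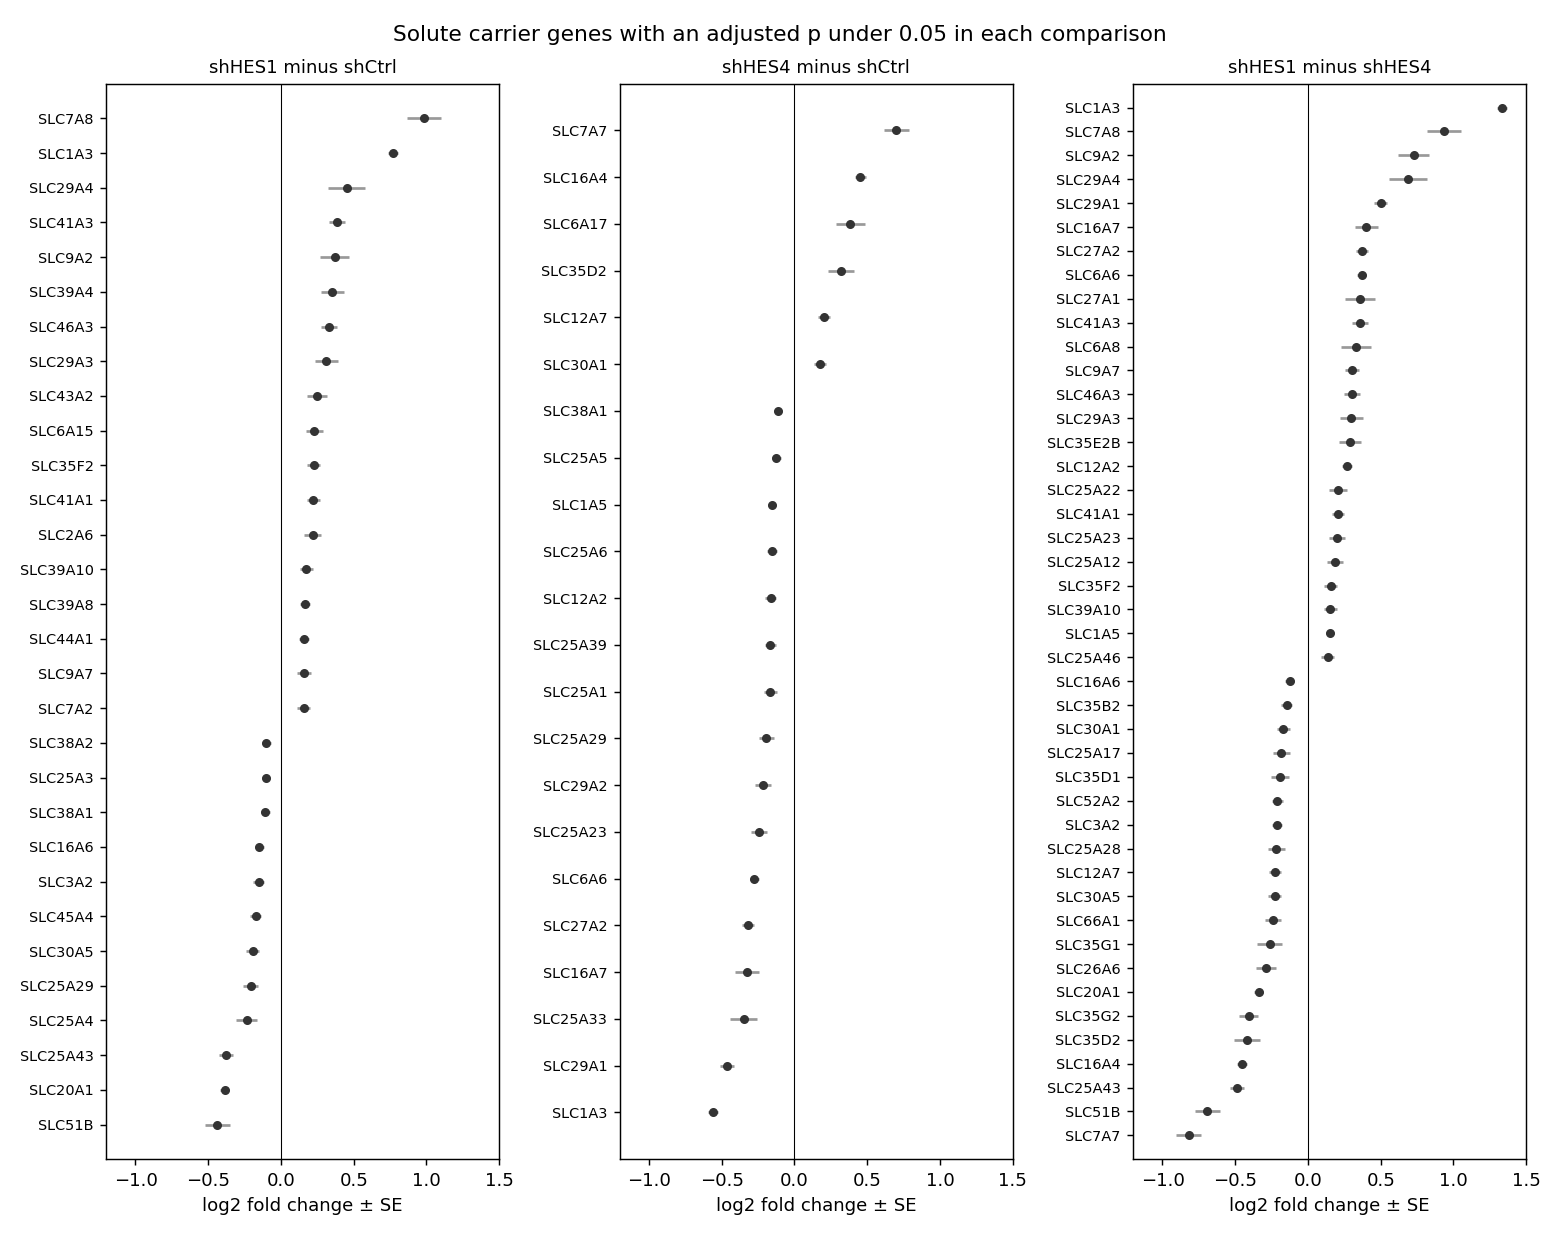
Log2 fold change of every solute carrier gene with an adjusted p under 0.05 in each of the 3 comparisons, as points with bars of 1 SE from edgeR's fit, ordered from the highest to the lowest. SLC1A3 is at the top in the comparison of the shHES groups, at 1.33, and most other points lie within 0.5 of 0.

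The summed level of the 185 genes was 13705 to 13842 CPM in shCtrl, 13495 to 13638 CPM in shHES1 and 13388 to 13466 CPM in shHES4, so the groups did not overlap on the TMM scale. As a plain share of the counts they took 1.36 to 1.37% in shCtrl, 1.37% in each shHES1 library and 1.33 to 1.35% in shHES4, where shHES1 overlapped shCtrl and shHES4 stayed below both.

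**Figure D2:**
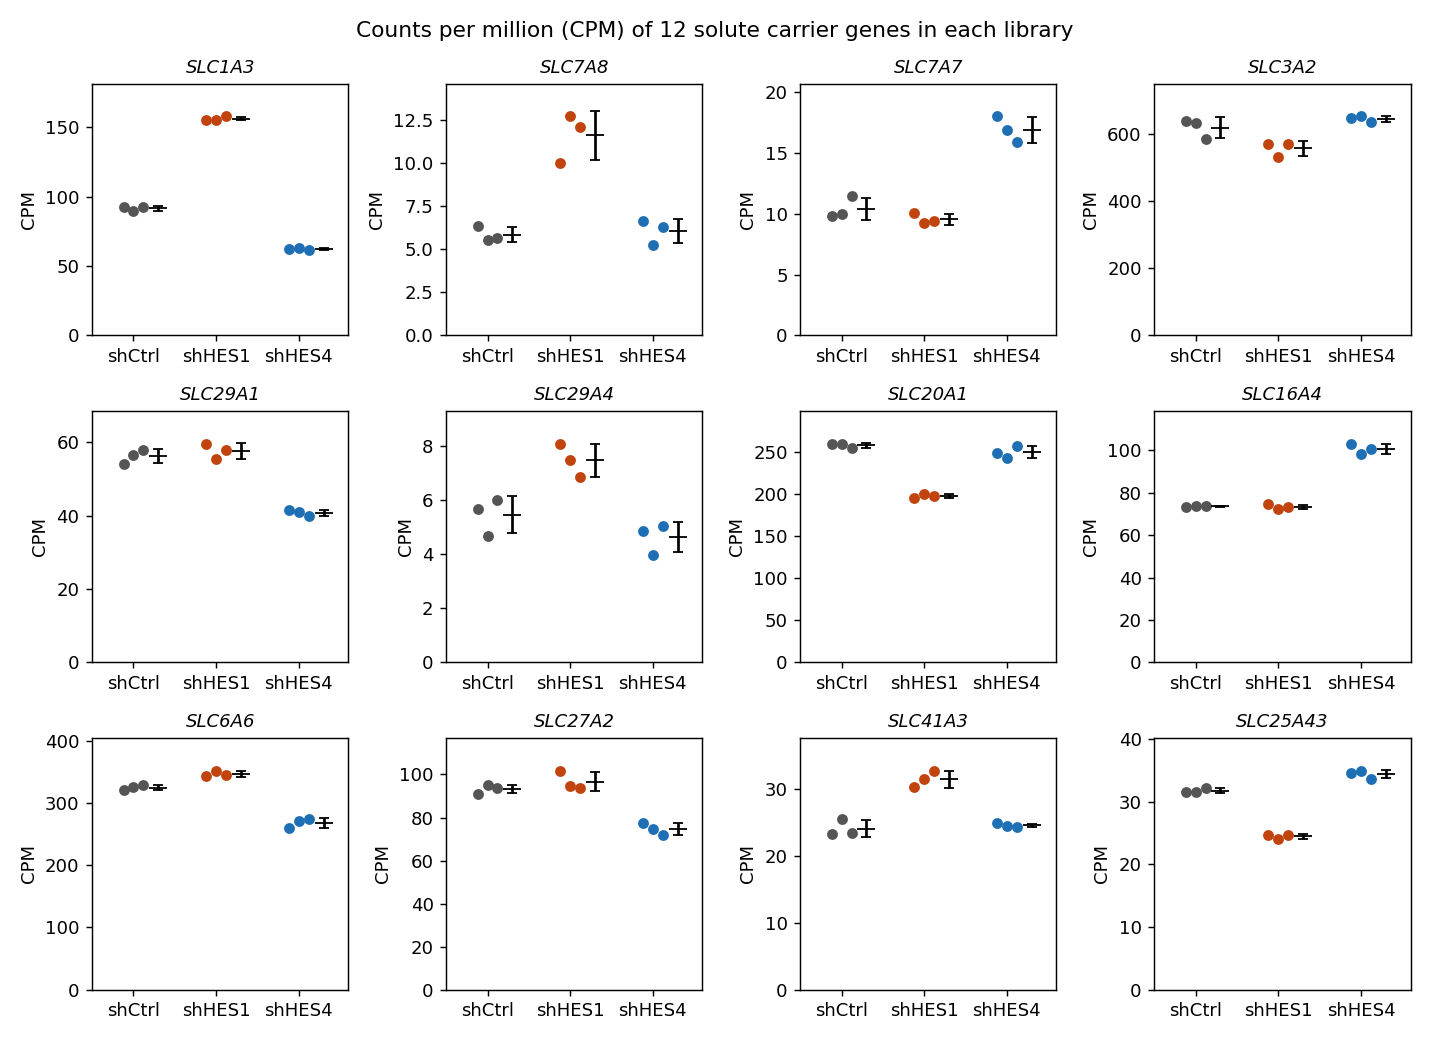
CPM of 12 solute carrier genes in each of the 9 libraries (points), with the mean and SD of each group of 3 as a bar beside them, on linear axes that start at 0. SLC1A3 is high in shHES1 and low in shHES4, SLC7A8, SLC29A4 and SLC41A3 are high in shHES1, SLC7A7 and SLC16A4 are high in shHES4, and SLC20A1 and SLC25A43 are low in shHES1.

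A carrier of amino acids held the largest called difference in each of the 3 comparisons. The largest of all was that of SLC1A3, the sodium-coupled glutamate and aspartate carrier known from glia. SLC1A3 stood at 92.3, 89.6 and 92.8 CPM in shCtrl, 155, 156 and 158 CPM in shHES1 and 61.9, 63.01 and 61.2 CPM in shHES4. The 3 groups did not overlap, with shHES1 highest and shHES4 lowest. Against shCtrl the log2 difference was 0.77 ± 0.03 (SE, adjusted p = 7.75e-11) in shHES1 and -0.56 ± 0.04 (SE, adjusted p = 3.41e-08) in shHES4, and between the shHES groups it was 1.33 ± 0.03 (SE, adjusted p = 6.71e-14). Of the 3 genes called against shCtrl in both shHES groups, it was the one that moved in opposite directions. SLC1A3 (ENSG00000079215) maps to GRCh38 chromosome 5, positions 36606355 to 36688334, plus strand, and its transcript has 10 exons.

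SLC3A2 is the heavy chain that pairs with light chains of the SLC7 family, each of which sets the amino acids that are exchanged. SLC7A8, a light chain for neutral amino acids, stood at 6.34, 5.53 and 5.67 CPM in shCtrl, 10.01, 12.7 and 12.1 CPM in shHES1 and 6.64, 5.26 and 6.27 CPM in shHES4. All 3 shHES1 libraries lay above the other 6, which overlapped. The log2 difference of SLC7A8 was 0.99 ± 0.12 (SE, adjusted p = 1.86e-05) in shHES1 and 0.05 ± 0.13 (SE, adjusted p = 0.888) in shHES4, and 0.94 ± 0.12 (SE, adjusted p = 1.99e-05) between them. SLC7A7, the light chain that exports arginine and lysine in exchange for neutral amino acids and sodium, stood at 9.797, 9.97 and 11.5 CPM in shCtrl, 10.1, 9.25 and 9.37 CPM in shHES1 and 18.01, 16.9 and 15.9 CPM in shHES4. Here the 3 shHES4 libraries lay above the other 6. Its log2 difference was 0.70 ± 0.09 (SE, adjusted p = 5.45e-05) in shHES4, -0.12 ± 0.09 (SE, adjusted p = 0.4901) in shHES1 and -0.82 ± 0.09 (SE, adjusted p = 2.81e-06) between them. The heavy chain SLC3A2 stood at 641, 634 and 584 CPM in shCtrl, 571, 531 and 569.9 CPM in shHES1 and 648, 653 and 636 CPM in shHES4. All shHES1 libraries were below all others, at -0.15 ± 0.04 (SE, adjusted p = 0.0119) against shCtrl and -0.21 ± 0.04 (SE, adjusted p = 5.85e-04) against shHES4. SLC7A5, its most abundant partner here, was not called, at -0.09 ± 0.03 (SE, adjusted p = 0.0913) in shHES1 and -0.09 ± 0.03 (SE, adjusted p = 0.134) in shHES4. SLC7A7 (ENSG00000155465) maps to GRCh38 chromosome 14, positions 22773222 to 22829820, minus strand, and SLC7A8 (ENSG00000092068) occupies 23125295 to 23183674 on the same strand of that chromosome. The call of SLC3A2 against shCtrl ended without shHES1 replicate 2 or either of shCtrl replicates 1 and 2, with an adjusted p of up to 0.0858.

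Among the other carriers of this class, SLC6A6, which takes up taurine with sodium and chloride, fell in shHES4. SLC6A6 stood at 320.4, 325 and 329 CPM in shCtrl, 343, 352 and 344 CPM in shHES1 and 259, 271 and 275 CPM in shHES4. The shHES4 libraries lay below all others, with a log2 difference of -0.27 ± 0.03 (SE, adjusted p = 1.64e-05) from shCtrl and of 0.37 ± 0.03 (SE, adjusted p = 1.40e-07) for shHES1 minus shHES4. SLC1A5, the main route of glutamine into many tumour cells, was lower in shHES4 by -0.16 (log2, adjusted p = 0.00259), at 341 ± 8.79 CPM against 379.7 ± 3.58 CPM (SD, n = 3). Higher in shHES4 was SLC6A17, a synaptic vesicle carrier of neutral amino acids, at 0.38 ± 0.10 (SE, adjusted p = 0.0273). In shHES1, SLC43A2, a facilitator of branched-chain amino acids, was higher by 0.25 ± 0.07 (SE, adjusted p = 0.0287), SLC6A15, a sodium-coupled neutral amino acid carrier, by 0.23 ± 0.06 (SE, adjusted p = 0.0137), and SLC7A2, a carrier of arginine and lysine, by 0.16 ± 0.05 (SE, adjusted p = 0.0397). The sodium-coupled carriers of small neutral amino acids SLC38A1 and SLC38A2 were lower in shHES1, at -0.11 and -0.10 (log2, adjusted p = 0.0333 and 0.0448), and SLC38A1 also in shHES4, at -0.11 (adjusted p = 0.0381). In all, 5 of the 26 genes of this class rose and 3 fell in shHES1, 2 rose and 4 fell in shHES4, and 5 were higher and 2 lower in shHES1 than in shHES4. The creatine carrier SLC6A8, placed here by its family, was among the 5, at 0.33 ± 0.10 (SE, adjusted p = 0.0378). The class medians were 0.01, -0.03 and 0.04 on the log2 scale. Of the tested genes at 5 CPM or more, 12.6% were called in shHES1, 7.67% in shHES4 and 18.9% between the shHES groups. In shHES1 the class counted 3 higher and 1 lower without shCtrl replicate 3 or any 1 shHES1 library, 4 and 1 without shCtrl replicate 1, 4 and 0 without shCtrl replicate 2, 6 and 1 on total counts alone and 5 and 5 with the GC and length correction, which also gave 5 and 5 between the shHES groups. In shHES4 the risers numbered 1 without shCtrl replicate 1 or any 1 shHES4 library. Several of these calls ended when 1 library was left out. Those of SLC38A1 and SLC38A2 in shHES1 ended without any 1 shCtrl library or shHES1 replicate 1 or 3, that of SLC38A2 also without shHES1 replicate 2 or shHES4 replicate 3 (adjusted p up to 0.143 and 0.167), and both ended on total counts alone (that of SLC38A2 also without a low-count filter and with only the genes at 5 CPM or more). That of SLC38A1 in shHES4 ended without any 1 of the shCtrl libraries, shHES1 replicate 1 or 3, or shHES4 replicate 1 or 3, with the 6 libraries alone and on total counts alone (adjusted p up to 0.125). SLC43A2 lost its call without shHES1 replicate 1 or 2 or shCtrl replicate 1 or 3 and in DESeq2, SLC6A15 without shHES1 replicate 3 or shCtrl replicate 3, and SLC6A17 without shCtrl replicate 1 or any 1 shHES4 library, with adjusted p up to 0.111, 0.0728 and 0.1003. SLC7A2 lost its call without shCtrl replicate 2 or 3, any 1 shHES1 library or shHES4 replicate 2 and with the GC and length correction (up to 0.129), and SLC6A8 without shHES1 replicate 1 or any 1 shHES4 library and in DESeq2 (up to 0.1999). With a replicate block, the calls of SLC7A2, SLC6A8 and SLC38A2 and that of SLC38A1 in shHES4 also ended.

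All 4 carriers of nucleosides were called in at least 1 comparison, against 25.1% of the tested genes at 5 CPM or more. These 4 belong to the SLC29 family of equilibrative carriers, which also let nucleoside drugs into cells. SLC29A1, the main carrier at the plasma membrane, stood at 54.03, 56.5 and 57.96 CPM in shCtrl, 59.6, 55.4 and 57.8 CPM in shHES1 and 41.4, 41.1 and 39.8 CPM in shHES4. The shHES4 libraries lay below the other 6, with a log2 difference of -0.46 ± 0.05 (SE, adjusted p = 5.05e-06) from shCtrl and of 0.50 ± 0.05 (SE, adjusted p = 4.80e-07) for shHES1 minus shHES4. SLC29A2, a second plasma membrane carrier, was lower in shHES4 by -0.22 ± 0.06 (SE, adjusted p = 0.0286). The lysosomal carrier SLC29A3 stood at 11.999, 12.4 and 12.5 CPM in shCtrl, 16.5, 15.1 and 14.2 CPM in shHES1 and 13.01, 12.5 and 11.8 CPM in shHES4. It was higher in shHES1 than in either other group, by 0.31 ± 0.08 (SE, adjusted p = 0.0182) over shCtrl and 0.30 ± 0.08 (SE, adjusted p = 0.0169) over shHES4. SLC29A4, which also carries monoamines, stood at 5.696, 4.69 and 5.9999 CPM in shCtrl, 8.097, 7.47 and 6.85 CPM in shHES1 and 4.87, 3.99 and 5.04 CPM in shHES4. It was higher in shHES1 by 0.45 ± 0.13 (SE, adjusted p = 0.02896) than in shCtrl and by 0.69 ± 0.13 (SE, adjusted p = 0.00121) than in shHES4, at a level next to the threshold that chose the genes. Its exons overlap those of TNRC18 on the opposite strand, which stood at 149 CPM, and how counting treated strand is not given in the sources used here. Leaving out shCtrl replicate 1 or 2, or shHES1 replicate 1 or 2, ended the calls of SLC29A3 and SLC29A4 against shCtrl (adjusted p up to 0.101 and 0.142), that of SLC29A3 against shHES4 without shHES1 replicate 1 or shHES4 replicate 3 (0.0942), and that of SLC29A2 without shCtrl replicate 2 or 3 or shHES4 replicate 2 or 3, in DESeq2 and with the 6 libraries alone (0.128). A replicate block also ended the call of SLC29A2.

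Phosphate enters the cell through the sodium-coupled carriers SLC20A1 and SLC20A2. SLC20A1, which is also a receptor for gibbon ape leukaemia virus, stood at 260.1, 260.1 and 254 CPM in shCtrl, 195, 200.4 and 197 CPM in shHES1 and 249.0, 243 and 257 CPM in shHES4. All 3 shHES1 libraries were below the other 6, which overlapped. The log2 difference was -0.38 ± 0.03 (SE, adjusted p = 1.99e-07) against shCtrl and -0.34 ± 0.03 (SE, adjusted p = 5.19e-07) against shHES4, while shHES4 stood at -0.05 ± 0.03 (SE, adjusted p = 0.431) against shCtrl. SLC20A2 was called in no comparison, at 0.12 ± 0.06 (SE, adjusted p = 0.2299) in shHES1 and 0.06 ± 0.06 (SE, adjusted p = 0.6697) in shHES4. SLC20A1 (ENSG00000144136) maps to GRCh38 chromosome 2, positions 112645857 to 112663827, plus strand, with 11 exons in its transcript.

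Of 21 carriers of zinc and other metals, 5 rose and 1 fell in shHES1, and 1 rose in shHES4. Among all tested genes 5.25% rose and 4.48% fell in shHES1, and 3.24% rose in shHES4. Of those at 5 CPM or more, 12.6% were called in shHES1 and 7.67% in shHES4, in both directions together. Cells import zinc through SLC39 carriers and move it out of the cytosol through SLC30 carriers. The importers SLC39A4, SLC39A8 and SLC39A10 were higher in shHES1, by 0.35 ± 0.08 (SE, adjusted p = 0.00598), 0.17 ± 0.04 (SE, adjusted p = 0.00588) and 0.18 ± 0.05 (SE, adjusted p = 0.0201). SLC30A5, which loads zinc into the early secretory pathway, was lower there by -0.19 ± 0.04 (SE, adjusted p = 0.00809). SLC30A1, the zinc exporter of the plasma membrane, rose in shHES4, by 0.18 ± 0.04 (SE, adjusted p = 0.0186). The other risers in shHES1 were magnesium carriers. SLC41A3 stood at 23.4, 25.6 and 23.4 CPM in shCtrl, 30.3, 31.5 and 32.8 CPM in shHES1 and 24.9, 24.5 and 24.4 CPM in shHES4. All shHES1 libraries lay above the rest, at 0.39 ± 0.06 (SE, adjusted p = 1.62e-04) over shCtrl and 0.36 ± 0.06 (SE, adjusted p = 2.20e-04) over shHES4. SLC41A1, which exchanges magnesium for sodium, was higher by 0.22 ± 0.04 (SE, adjusted p = 0.00289) and 0.21 ± 0.04 (SE, adjusted p = 0.00371). The class medians were 0.03 in each of the 3 comparisons on the log2 scale. The count in shHES1 was 6 higher and 1 lower with RLE factors, on total counts alone and in DESeq2, and it was 4 and 1 without shHES1 replicate 2 or shCtrl replicate 2 and 4 and 0 without shHES1 replicate 3, where SLC30A5 stood at an adjusted p of 0.05099. SLC39A10 lost its call without shHES1 replicate 2 or 3 or shCtrl replicate 2 (up to 0.106). The call of SLC30A1 in shHES4 ended without shCtrl replicate 1 or 3 or shHES4 replicate 2 or 3 (up to 0.103), and against shHES1 without shHES1 replicate 1 or shHES4 replicate 2 or 3 (up to 0.0675).

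Among 23 exchangers and cotransporters of bicarbonate, protons, chloride and cations, 5 were called in some comparison, against 25.1% of the tested genes at 5 CPM or more. SLC9A2, a sodium/proton exchanger of epithelia, stood at 11.8, 11.9 and 11.8 CPM in shCtrl, 15.3, 16.6 and 14.001 CPM in shHES1 and 8.01, 11.1 and 8.57 CPM in shHES4. It was higher in shHES1 than in shHES4 by 0.73 ± 0.11 (SE, adjusted p = 1.08e-04) and than in shCtrl by 0.37 ± 0.10 (SE, adjusted p = 0.0287), and the shHES4 libraries, at -0.36 ± 0.11 (SE, adjusted p = 0.0654), lay below those of shCtrl without passing the test. The Golgi exchanger SLC9A7 was higher in shHES1 by 0.16 ± 0.05 (SE, adjusted p = 0.0475) over shCtrl and 0.30 ± 0.05 (SE, adjusted p = 2.59e-04) over shHES4. SLC12A2 brings sodium, potassium and chloride into the cell, and SLC12A7 takes potassium and chloride out. SLC12A2 was lower in shHES4 by -0.16 ± 0.04 (SE, adjusted p = 0.0116), and SLC12A7 was higher there by 0.20 ± 0.04 (SE, adjusted p = 0.00678). Between the shHES groups both were called, SLC12A2 at 0.27 ± 0.04 (SE, adjusted p = 4.67e-05) and SLC12A7 at -0.23 ± 0.04 (SE, adjusted p = 0.00104), as was SLC26A6, an exchanger of chloride for bicarbonate and oxalate, at -0.29 ± 0.07 (SE, adjusted p = 0.00798). SLC4A2, the most abundant of the class, was called in none, at -0.04 and -0.02 against shCtrl. The calls against shCtrl ended for SLC9A2 without shHES1 replicate 1 or 2 or shCtrl replicate 1 or 2 (adjusted p up to 0.137), for SLC9A7 without any 1 shCtrl library, shHES1 replicate 1 or 2 or shHES4 replicate 3, and in DESeq2 (up to 0.206), for SLC12A2 without shHES4 replicate 1 (0.0502) and for SLC12A7 without shCtrl replicate 2 (0.0513). That of SLC9A7 also ended with a replicate block.

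Monocarboxylates such as lactate and pyruvate cross membranes through SLC16 carriers. SLC16A4, a less characterised member of that family, stood at 73.2, 73.8 and 73.8 CPM in shCtrl, 74.5, 72.6 and 73.3 CPM in shHES1 and 103, 98.3 and 101 CPM in shHES4. The shHES4 libraries lay above the other 6, which differed little, with a log2 difference of 0.45 ± 0.04 (SE, adjusted p = 3.02e-07) from shCtrl. Between the shHES groups it was -0.46 ± 0.04 (SE, adjusted p = 6.58e-08). SLC16A4 (ENSG00000168679) maps to GRCh38 chromosome 1, positions 110362848 to 110391082, minus strand, with 9 exons, and its exons overlap the antisense gene LAMTOR5-AS1, which stood at 1.04 CPM. SLC16A7, a high-affinity pyruvate and lactate carrier, was lower in shHES4, at 19.2 ± 2.598 CPM against 24.02 ± 1.38 CPM (SD, n = 3), a log2 difference of -0.32 ± 0.08 (SE, adjusted p = 0.0263). SLC16A6, which carries ketone bodies in zebrafish liver, was lower in shHES1 by -0.15 ± 0.03 (SE, adjusted p = 0.003599) than in shCtrl and by -0.13 ± 0.03 (SE, adjusted p = 0.00883) than in shHES4. The call of SLC16A7 in shHES4 ended without shCtrl replicate 1 or shHES4 replicate 1 and with the 6 libraries alone (adjusted p up to 0.104).

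Of 36 mitochondrial carriers of the SLC25 family, 4 were lower in shHES1 and 7 in shHES4 than in shCtrl, and 0 were higher in either group by edgeR. Among all tested genes 9.73% were called in shHES1 (4.48% lower) and 5.94% in shHES4 (2.7% lower). Of the tested genes at 5 CPM or more, these shares were 12.6% and 7.67% in both directions together. At an unadjusted p under 0.05, which 22.9% of all tested genes reached in shHES1 and 19.3% in shHES4, 3 were higher and 10 lower in each shHES group, and DESeq2 called 1 higher in shHES1 and 0 in shHES4. The class was set by family number alone. Most of its members, though not all, sit in the inner mitochondrial membrane and exchange metabolites, nucleotides and cofactors with the matrix. The median log2 differences of the 36 were -0.07 in shHES1 and -0.05 in shHES4, against 0.00 in size over all tested genes. In shHES4 the lower ones included the ADP/ATP carriers SLC25A5 at -0.13 ± 0.03 (SE, adjusted p = 0.0232) and SLC25A6 at -0.16 ± 0.03 (SE, adjusted p = 0.00798), the glutathione carrier SLC25A39 at -0.16 ± 0.04 (SE, adjusted p = 0.0122) and the ATP-magnesium/phosphate carrier SLC25A23 at -0.24 ± 0.06 (SE, adjusted p = 0.0132). The citrate carrier SLC25A1, the carrier of basic amino acids SLC25A29 and the pyrimidine nucleotide carrier SLC25A33 were lower by -0.17, -0.19 and -0.35 on the log2 scale (adjusted p = 0.0384, 0.0368 and 0.0342). In shHES1 the lower ones were SLC25A29 at -0.21 ± 0.05 (SE, adjusted p = 0.0157), the phosphate carrier SLC25A3 at -0.10 ± 0.03 (SE, adjusted p = 0.0336), the ADP/ATP carrier SLC25A4 at -0.24 ± 0.07 (SE, adjusted p = 0.0439) and SLC25A43, whose substrate is not established.

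SLC25A43 stood at 31.6, 31.5 and 32.2 CPM in shCtrl, 24.7, 24.04 and 24.8 CPM in shHES1 and 34.6, 34.9 and 33.7 CPM in shHES4. Its groups did not overlap, with shHES1 lowest and shHES4 highest, at -0.38 ± 0.05 (SE, adjusted p = 5.28e-05) in shHES1 and -0.49 ± 0.05 (SE, adjusted p = 1.39e-06) for shHES1 minus shHES4, though shHES4 did not pass the test against shCtrl at 0.11 ± 0.05 (SE, adjusted p = 0.195). Between the shHES groups 15.1% of all tested genes were called, and 18.9% of those at 5 CPM or more. Of the 36 carriers, 4 were higher and 3 lower in shHES1 in that comparison. The higher ones, SLC25A12, SLC25A22, SLC25A23 and SLC25A46, all lost their call without shHES1 replicate 1, where 0 were higher and 3 lower. The counts were 1 and 2 without shHES1 replicate 2 or 3 or shHES4 replicate 2, 2 and 1 without shHES4 replicate 1, and 2 and 2 without shHES4 replicate 3 and in DESeq2. The share of mitochondrially encoded counts was 6.23, 6.35 and 7.16% in shCtrl, 6.53 to 6.69% in shHES1 and 5.89 to 6.16% in shHES4, and its part in these differences was not tested. Many of these calls ended under an alternative. In shHES4 the count of lower carriers was 6 on total counts alone, 4 in DESeq2, 3 with the 6 libraries alone or without shCtrl replicate 2, 2 without shHES4 replicate 3 and 1 without shHES4 replicate 2, and none was higher under any of these. In shHES1 it was 2 on total counts alone and 3 in DESeq2, each with 1 carrier higher, and 1 without shHES1 replicate 1 or 2 or shCtrl replicate 2 and 2 without shHES1 replicate 3. Without shCtrl replicate 3 it was 4 lower and 1 higher in shHES1, and 7 lower and 0 higher in shHES4. SLC25A43 in shHES1, with an adjusted p of up to 6.16e-04, kept its call under each alternative, while SLC25A29 in shHES1 lost it without shHES1 replicate 1 or 2 or shCtrl replicate 2 (up to 0.0815). SLC25A39 and SLC25A6 in shHES4 lost theirs without shHES4 replicate 2 (0.07003) and shHES4 replicate 3 (0.0529) respectively. SLC25A5 lost it without shCtrl replicate 2 or shHES4 replicate 2 or 3 (up to 0.119), SLC25A23 without shCtrl replicate 3 or shHES4 replicate 1 or 2 (up to 0.0613), SLC25A33 without shCtrl replicate 2 or 3 or any 1 shHES4 library (up to 0.125) and SLC25A1 without any 1 library other than shCtrl replicate 1 or 3 (up to 0.166). In shHES1, SLC25A3 lost it without shCtrl replicate 1 or 2 or any 1 shHES1 library (up to 0.142) and SLC25A4 without any 1 library other than shCtrl replicate 3 (up to 0.217). With the 6 libraries alone, the calls of SLC25A5, SLC25A33 and SLC25A1 in shHES4 and of SLC25A3 and SLC25A4 in shHES1 also ended. Those of SLC25A33, SLC25A1 and SLC25A4 ended in DESeq2. A replicate block ended those of SLC25A33, SLC25A1 and SLC25A3. On total counts alone those of SLC25A1, SLC25A3 and SLC25A4 ended, and with the GC and length correction that of SLC25A1.

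**Figure D3:**
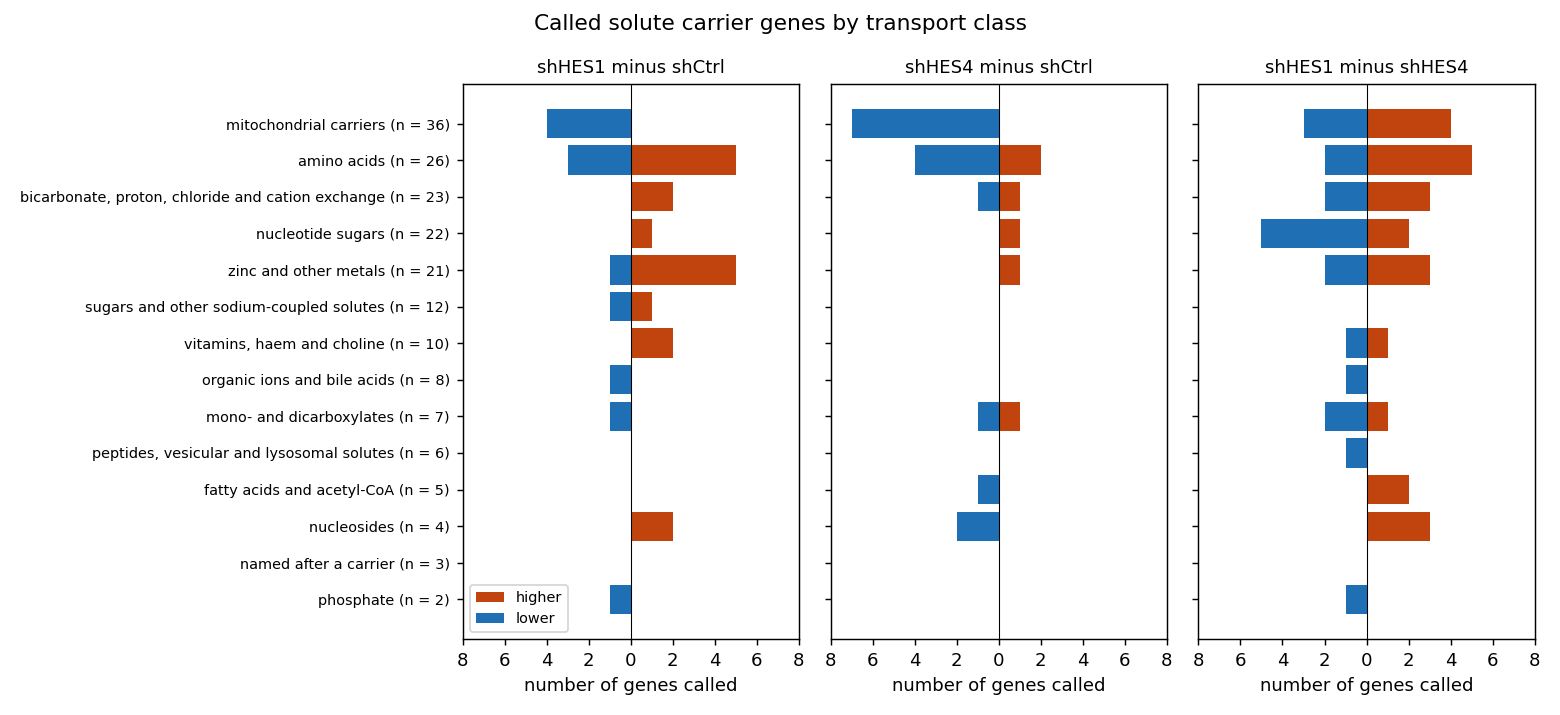
Number of solute carrier genes called higher (right) or lower (left) at an adjusted p under 0.05 in each comparison, by transport class, with the number of genes in the class in parentheses. The mitochondrial carriers have bars only to the left against shCtrl, 4 in shHES1 and 7 in shHES4, and the metal carriers mostly to the right in shHES1, 5 against 1. Of the tested genes at 5 CPM or more, 12.6% were called in shHES1, 7.67% in shHES4 and 18.9% between the shHES groups, in both directions together.

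Fatty acids are taken up and coupled to coenzyme A by SLC27 proteins. SLC27A2, which activates very long chain fatty acids, stood at 91.1, 94.97 and 93.7 CPM in shCtrl, 102, 94.7 and 93.5 CPM in shHES1 and 77.4, 74.5 and 72.1 CPM in shHES4. The shHES4 libraries were below the other 6, at -0.32 ± 0.04 (SE, adjusted p = 1.07e-04) against shCtrl and 0.37 ± 0.04 (SE, adjusted p = 5.75e-06) for shHES1 minus shHES4. SLC27A1 was higher in shHES1 than in shHES4 by 0.36 ± 0.10 (SE, adjusted p = 0.0278), a call that ended without any 1 shHES1 library, without shHES4 replicate 2 or 3 and in DESeq2 (adjusted p up to 0.107). SLC27A4 was called in none, at 0.00 and -0.10 against shCtrl.

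Of 10 carriers of vitamins, haem and choline, 2 rose in shHES1 and 0 in shHES4, where 2 were higher at an unadjusted p under 0.05 and DESeq2 also called 0. Among all tested genes 5.25% rose in shHES1 and 3.24% in shHES4. At 5 CPM or more, 12.6% were called in shHES1 and 7.67% in shHES4, in both directions together. SLC46A3, a lysosomal carrier, stood at 30.7, 27.95 and 28.2 CPM in shCtrl, 35.3, 36.99 and 36.8 CPM in shHES1 and 30.04, 27.8 and 30.6 CPM in shHES4. The shHES1 libraries lay above all others, at 0.33 ± 0.05 (SE, adjusted p = 6.37e-04) over shCtrl and 0.30 ± 0.05 (SE, adjusted p = 9.59e-04) over shHES4. The choline carrier SLC44A1 was higher in shHES1 by 0.16 ± 0.04 (SE, adjusted p = 0.00629). The riboflavin carrier SLC52A2 was called only between the shHES groups, at -0.21 ± 0.04 (SE, adjusted p = 0.00141). Its exons overlap FBXL6 on the opposite strand, at 20.96 CPM.

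SLC51B encodes the beta subunit of the basolateral bile acid and steroid carrier, and it was the 1 called gene among 8 carriers of organic ions and bile acids. SLC51B stood at 10.5, 11.9 and 11.6 CPM in shCtrl, 8.42, 8.63 and 7.98 CPM in shHES1 and 13.01, 14.2 and 13.2 CPM in shHES4. The 3 groups did not overlap, with shHES1 lowest and shHES4 highest. The log2 difference was -0.44 ± 0.09 (SE, adjusted p = 0.00279) in shHES1 and -0.69 ± 0.09 (SE, adjusted p = 1.83e-05) for shHES1 minus shHES4, and 0.25 ± 0.08 (SE, adjusted p = 0.0912) in shHES4.

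Nucleotide sugar carriers of the SLC35 family supply the Golgi apparatus and the endoplasmic reticulum for glycosylation. The 22 genes of this class were set by family number, and not all of them are known to carry nucleotide sugars. Of the 22, SLC35F2 was the 1 gene higher in shHES1 than in shCtrl, by 0.22 ± 0.04 on the log2 scale (SE, adjusted p = 0.00215). It stood at 54.2 ± 1.79 CPM in shHES1 against 46.4 ± 0.874 CPM in shCtrl (SD, n = 3). SLC35D2, which carries UDP-N-acetylglucosamine, was the 1 gene higher in shHES4, by 0.32 ± 0.09 (SE, adjusted p = 0.0432). Between the shHES groups 2 were higher and 5 lower in shHES1, with a class median of -0.04. These counts were 0 and 2 without shHES1 replicate 3, 1 and 2 without shHES1 replicate 1, 2 and 2 without shHES1 replicate 2 or shHES4 replicate 1, 0 and 3 without shHES4 replicate 2, and 2 and 3 without shHES4 replicate 3, on total counts alone, in DESeq2 and without a low-count filter. The lower ones were led by SLC35G2, whose substrate is not established, at -0.41 ± 0.06 (SE, adjusted p = 2.28e-04), and SLC35D2, at -0.42 ± 0.09 (SE, adjusted p = 0.003601). The call of SLC35D2 in shHES4 ended when any 1 library other than shCtrl replicate 3 was left out, in DESeq2, with the 6 libraries alone and with the GC and length correction (adjusted p up to 0.155), and that of SLC35F2 between the shHES groups without shHES1 replicate 1 or 3 or shHES4 replicate 2 (0.0935).

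Few genes of the remaining classes were called. Of 6 carriers of peptides and of vesicular and lysosomal solutes, SLC66A1, which exports cationic amino acids from lysosomes, was lower in shHES1 than in shHES4 by -0.24 ± 0.06 (SE, adjusted p = 0.00632). Of 12 carriers of sugars and other sodium-coupled solutes, the lysosomal hexose carrier SLC2A6 was higher in shHES1 by 0.22 ± 0.06 (SE, adjusted p = 0.0318) and SLC45A4 was lower by -0.17 ± 0.04 (SE, adjusted p = 0.00922). SLC2A6 lost its call without shHES1 replicate 1 or shCtrl replicate 1 or 3 (adjusted p up to 0.183), and SLC45A4 without shHES1 replicate 1 (0.0587). SLC2A4RG, SLC4A1AP and SLC7A6OS, which are not carriers, had 0 calls in the 3 comparisons by edgeR, 0 at an unadjusted p under 0.05 and 0 by DESeq2.

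Against shCtrl, 3 of the 185 genes were called in both shHES groups. SLC1A3 moved in opposite directions, as given above. SLC25A29 and SLC38A1 were lower in both, at 35.9, 37.2 and 35.7 CPM in shCtrl, 31.3, 30.3 and 32.6 CPM in shHES1 and 32.7, 29.9 and 32.6 CPM in shHES4 for SLC25A29, and at 445, 442 and 452, 407, 424 and 412 and 399, 427 and 412 CPM for SLC38A1. In both genes the shCtrl libraries lay above all 6 others and the shHES groups overlapped. SLC25A29 lost its call in shHES4 in 9 of 17 alternatives, among them without shHES4 replicate 2 or 3, shHES1 replicate 1, or either of shCtrl replicates 1 and 2 (adjusted p up to 0.151).

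**Figure D4:**
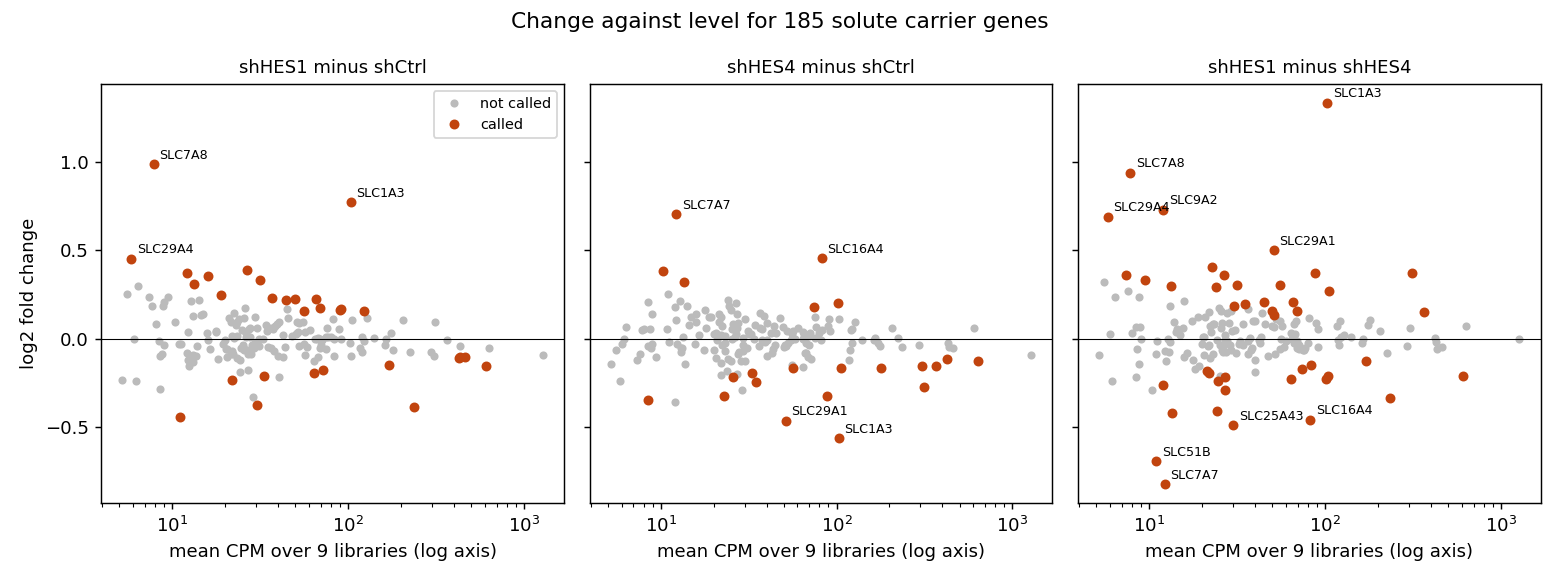
Log2 fold change against mean CPM over the 9 libraries (log axis) for the 185 solute carrier genes in each comparison, with called genes in orange and the others in grey. Called genes cover the range from under 10 CPM (5 genes) to 100 CPM or more (16 genes), and SLC1A3, with the largest difference between the shHES groups, stands at 103 CPM.

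Genes that work with these carriers were read from lists. Of 52 solute carriers that go under other symbols, 42 were tested; 1 rose and 5 fell in shHES1, 3 rose and 2 fell in shHES4, and 4 were higher and 6 lower in shHES1 than in shHES4, comparisons in which 9.73, 5.94 and 15.1% of all tested genes were called. The 1 that rose in shHES1, SFXN3, lost its call without shCtrl replicate 2 or any 1 shHES1 library (adjusted p up to 0.0742). In shHES4 the lower ones numbered 1 without shHES4 replicate 3 and 5 with the GC and length correction, and between the shHES groups the counts were 2 higher and 4 lower without shHES1 replicate 1. SPNS2, the exporter of sphingosine 1-phosphate, stood at 11.6, 11.3 and 12.2 CPM in shCtrl, 7.45, 7.44 and 8.58 CPM in shHES1 and 15.3, 14.6 and 14.3 CPM in shHES4. Its groups did not overlap, with shHES1 lowest and shHES4 highest, at -0.58 ± 0.09 (SE, adjusted p = 2.73e-04) and 0.33 ± 0.08 (SE, adjusted p = 0.02302) against shCtrl. NPC1, the lysosomal cholesterol exporter, showed the same order at a higher level, at 808 ± 1.42 CPM in shCtrl, 719.8 ± 1.49 CPM in shHES1 and 888 ± 6.97 CPM in shHES4 (SD, n = 3), with log2 differences of -0.17 ± 0.02 (SE, adjusted p = 2.02e-04) and 0.14 ± 0.02 (SE, adjusted p = 0.00186). The call of SPNS2 in shHES4 ended without shCtrl replicate 1 or 2 or shHES4 replicate 1 or 2 (adjusted p up to 0.0916). RHCG, an ammonia channel, was higher in shHES4 by 0.67 ± 0.07 (SE, adjusted p = 1.52e-05), and SFXN1, the mitochondrial serine carrier, was lower there by -0.21 ± 0.03 (SE, adjusted p = 6.53e-04).

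The sodium pump maintains the gradient that many of these carriers use. Of its 14 listed subunits and regulators 6 were tested, and ATP1B1, a beta subunit, was higher in shHES1 by 0.15 ± 0.03 (SE, adjusted p = 0.00228). ATP1B3, another beta subunit, was lower in shHES1 than in shHES4 by -0.22 ± 0.04 (SE, adjusted p = 0.00103). ATP1B1 was higher in that comparison by 0.14 ± 0.03 (SE, adjusted p = 0.00233). FXYD2, also on this list, was lower in it by -1.07 ± 0.34 (SE, adjusted p = 0.0418), at a mean of only 0.97 CPM. The call of FXYD2 ended in 7 of 16 alternatives (adjusted p up to 0.162). Among all tested genes 9.73% were called in shHES1 and 15.1% between the shHES groups. BSG, the chaperone that brings monocarboxylate carriers to the plasma membrane, was lower in shHES1 by -0.15 ± 0.03 (SE, adjusted p = 0.001603). NHERF2, a scaffold of ion exchangers, was lower there by -0.43 ± 0.06 (SE, adjusted p = 1.27e-04). BSG and NHERF2 were the called genes among 8 chaperones and scaffolds, where 9.73% of all tested genes were called in shHES1. Of 7 genes for the TIM22 machinery, which inserts SLC25 carriers into the inner membrane, 0 were called in any comparison by edgeR or DESeq2, and at an unadjusted p under 0.05 there was 1 lower in shHES1, 0 in shHES4, and 1 higher and 1 lower between the shHES groups, where 27.6% of all tested genes reached it. The WNK kinases and the kinases STK39 and OXSR1 that they activate set the activity of SLC12 carriers. Of 8 tested genes on a list of these kinases with CAB39, KLHL3 and CUL3, of which the first works with STK39 and OXSR1 and the others degrade WNK kinases, WNK1 was lower in shHES4 by -0.15 ± 0.04 (SE, adjusted p = 0.0213), a call that ended without shCtrl replicate 3 or shHES4 replicate 1 or 2 and with the 6 libraries alone (up to 0.0832).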

How the data were processed

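RNA sequencing libraries of A549 cells (3 per group, grouped by the hairpin in the labels) were made from TRIzol-extracted total RNA with a SMARTer kit, per the labels' protocols. What the authors deposited was a gene-level table of estimated counts under human Ensembl identifiers, whose nonzero values were not whole in 35.5% of cases (tolerance 1e-06). For the aligner, counter, annotation and use of strand, the answer is not given in the sources used here, and the submitters' processing notes name mouse builds only, so no build is taken from them. Current symbols came from the reference table for 60463 of 60664 identifiers, and coordinates, lengths and exon numbers from GENCODE release 29 on GRCh38. Exons of 91 of the 185 genes overlap another annotated gene, 29 of them among the called ones.

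The deposited estimated counts were rounded to whole numbers, and genes were filtered with filterByExpr (16903 kept), scaled with TMM and fitted for all 9 libraries together in edgeR 4.0.16 under R 4.3.3 (6 residual degrees of freedom, quasi-likelihood F test, Benjamini-Hochberg adjustment, threshold 0.05). Every adjusted p without another name is from this test, and an SE is the log2 fold change divided by the square root of F. The fit was tested on simulated data first. Alternatives were RLE factors, total counts alone, DESeq2 1.42.0, 2 other low-count filters, the 6 libraries of a comparison alone, a replicate block, a GC and length correction, other membership thresholds and leaving out each library. At 22.8 to 27.6 M counts per library, precision is lowest for the genes with few counts.

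The members, classes (by family number) and lists were chosen with earlier results of these data known. Named genes were the 12 largest rises and falls in each shHES group and the 8 largest between them among called genes, the 3 smallest adjusted p per class, the 10 highest levels per kilobase, those next to the threshold, those called in both shHES groups, and up to 4 called genes per list. SLC6A8, SLC7A2, SLC39A8 and SLC39A10 were added with their values in view. SLC25A12, SLC25A22, SLC25A46 and SFXN3 were also named outside these rules. Some solute carrier genes are not reported here by name.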

Additional observations from a re-analysis of the deposited data

How the results depend on the processing

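Counts of called solute carrier genes stayed within 1.5 times the reported ones under RLE factors, total counts alone, DESeq2, other low-count filters, the GC and length correction and thresholds of 1 or 10 CPM. The exception was the lower genes of shHES4, 9 in place of 16 when only the 6 libraries of that comparison were fitted; the cause was not tested. When 1 library was left out, the counts against shCtrl ran from 11 to 21 higher and 6 to 12 lower in shHES1 and from 3 to 6 higher and 9 to 16 lower in shHES4. Between the shHES groups they ran from 17 to 27 higher and 15 to 22 lower. Of all 96 calls of the solute carrier genes, 48 held under each of the 17 alternatives, 48 ended under at least 1 and 0 reversed. These include calls of genes not reported by name. Of 30 calls of partner genes 19 held and 11 ended. Same-numbered libraries did not deviate together (correlations of -0.05 to 0.05 between their deviations from the group means). So no strong shift shared by number was seen over all tested genes. Whether same-numbered libraries were prepared together cannot be told from this, and the labels do not say. A replicate block gave 16 higher and 11 lower in shHES1, 6 and 12 in shHES4, and 21 and 18 between the shHES groups. Of 18 genes under 10 CPM 5 were called, and of the 167 others 59; the median SE of the log2 difference of shHES1 from shCtrl was 0.11 and 0.05 in these groups, and the part of depth in this was not tested.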
